A study of Mus musculus with 6 samples.

Results

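The comparison described here set 2 RNA-seq libraries of mouse cardiomyocytes treated with BMP2 against 2 libraries treated with PBS. Its members are all 4 libraries carrying those treatment labels, of 6 libraries in the series, and every gene that could be tested in them, 14378 of 32245 gene symbols in the count files. The labels give both groups as wild type primary cardiomyocytes from mouse heart, the series' design text describes the cells as neonatal, and polyadenylated RNA was sequenced. PBS, a salt solution, was the control, and BMP2 was the only labelled difference between the groups. The other 2 libraries received BMP2 with dorsomorphin and entered only through the shared estimate of the spread. The sources used here do not give the dose, the duration, the day of isolation or the number of hearts pooled. Nothing in the labels says whether the 2 replicates of a group were separate cultures, so the p-values measure only the spread between these samples, which may be technical. The series' design text gives the question as the effect of BMP2 on transcription in these cells.

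BMP2, bone morphogenetic protein 2, is a secreted growth factor of the TGF-beta superfamily. It binds pairs of type I and type II serine/threonine kinase receptors, which phosphorylate SMAD1, SMAD5 and SMAD9, and these enter the nucleus with SMAD4 to act on genes such as the Id family and the inhibitory Smads. In the embryo BMP2 takes part in heart field specification and in the patterning of the atrioventricular canal, and its name comes from its capacity to induce cartilage and bone.

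Gene counts ran from 10362486 to 14366042 over the 4 libraries. PBS replicate 1 and BMP2 replicate 1 stood apart in reads assigned to Gm42418 and AY036118, models of ribosomal repeat sequence, with 1.31% and 2.10% of gene counts against 0.0702% and 0.0928% in the other 2. Since each group held 1 of them, counts are also given with both left out, which leaves 1 library against 1 with a spread taken from the dorsomorphin pair. The cardiomyocyte label was checked against 14 markers, all of which were tested. Their summed level was 40237 and 39593 CPM with PBS and 30143 and 29913 CPM with BMP2, where CPM is the count after scaling every library to the same size. Markers of other heart cells were also present: fibroblast markers summed to 11618 and 12330 CPM with PBS and 11460 and 11723 CPM with BMP2, smooth muscle and pericyte markers to 4626 and 4663 CPM with PBS and 2939 and 2963 CPM with BMP2, endothelial markers to 706 and 696 CPM with PBS and 634 and 627 CPM with BMP2, epicardial and mesothelial markers to 284 and 307 CPM with PBS and 219 and 222 CPM with BMP2 and macrophage and leukocyte markers to 102 and 96.2 CPM with PBS and 75.8 and 76.1 CPM with BMP2. No erythroid marker reached the filter on low counts, and the skeletal muscle genes Myh2, Myh4, Myog and Myod1 had no count in the 4 libraries. These are bulk measurements, in which fewer cells of a type and less RNA per cell cannot be told apart.

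BMP2 changed 2277 genes at an adjusted p under 0.05 in edgeR's quasi-likelihood test, which is 15.8% of the genes tested. Higher levels were found for 942 genes (6.55%) and lower levels for 1335 (9.29%), and those 3 shares are the background against which the gene lists below are read. The falls were larger than the rises. At least 2-fold changes numbered 105 upward and 331 downward, at least 8-fold changes 18 and 46, and 74.2% of the rises against 50.4% of the falls stayed under 1.5-fold. The median log2 fold change was 0.42 over the genes that rose, −0.58 over those that fell and 0.0044 over all tested genes. Genes that rose made up 14.7% and 14.65% of the total signal in the PBS libraries and 18.5% and 18.45% in the BMP2 libraries, and genes that fell went from 26.9% and 27.2% to 19.95% and 20.05%. Tested genes were also split into 5 equal parts by abundance. In the most abundant part 15.5% rose and 17.8% fell, with a median absolute log2 change of 0.33 over the called genes. In the least abundant part 1.7% rose and 4.03% fell, with a median of 2.35 over the called genes. At low counts only larger changes pass the threshold, so these medians do not compare all genes of the 5 parts. Protein-coding genes were called in 16.8% of 12755 cases and antisense transcripts in 8% of 900. Leaving out 1 PBS or BMP2 library lowered the counts to 524 and 885 (PBS replicate 1), 475 and 843 (PBS replicate 2), 570 and 902 (BMP2 replicate 1) and 551 and 894 (BMP2 replicate 2), and leaving out PBS replicate 1 with BMP2 replicate 1 gave 171 and 403. No gene called in both the full fit and any of these fits changed direction.

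**Figure D1:**
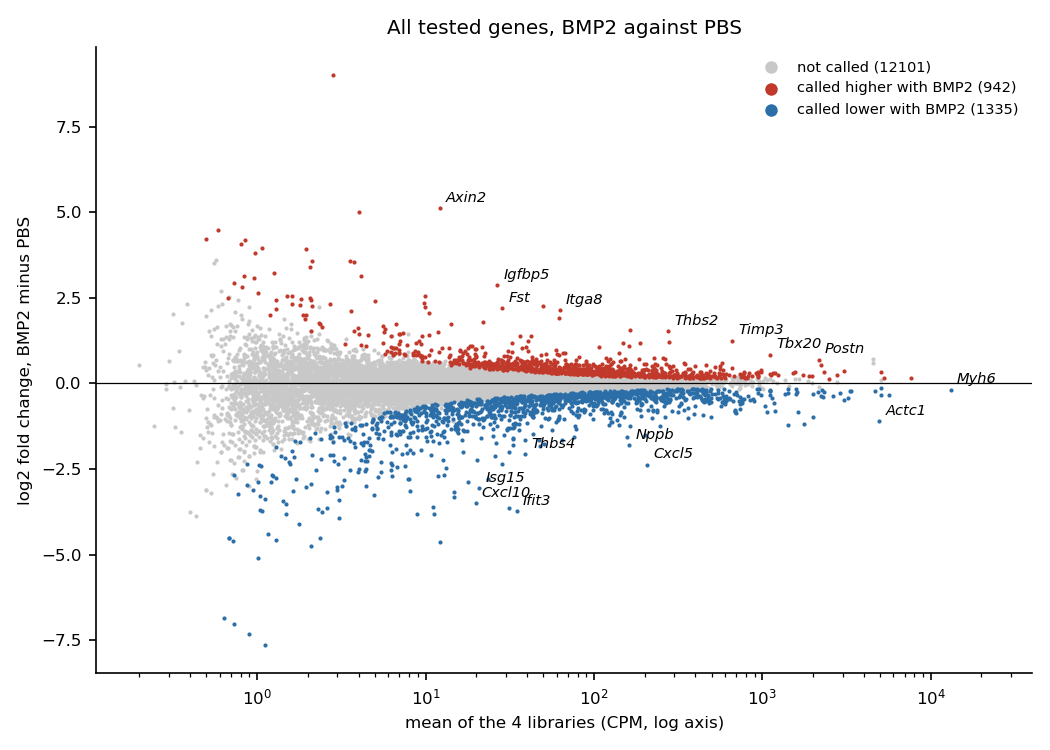
Each point is 1 of 14378 tested genes, with its mean level over the 4 libraries (CPM, log axis) and its log2 fold change, BMP2 minus PBS, red where called higher (942), blue where called lower (1335) and grey where not called. Interferon-stimulated genes such as Ifit3 (−3.73 ± 0.19) lie among the largest falls, Axin2 (5.12 ± 0.26) lies high among the rises, and changes of abundant genes such as Actc1 (−1.10 ± 0.04) are smaller.

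Antiviral interferon-stimulated genes fell nearly as a whole. Of 30 tested members of that list 28 were lower and 0 higher with BMP2, with a median log2 fold change of −2.54, and the listed genes together summed to 948 and 942 CPM with PBS and 287 and 297 CPM with BMP2. Counts of members called lower were 25 to 27 in the fits without 1 PBS or BMP2 library and 23 with PBS replicate 1 and BMP2 replicate 1 left out. The list covers sensors of viral RNA, enzymes that degrade or modify it, and the ubiquitin-like ISG15 system. All are switched on in textbook accounts when interferon activates STAT and IRF factors, which bind the interferon-stimulated response element.

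The promoters of 7 genes with large falls are shown first, because each holds the letters of that element. RefSeq promoters of 300 bases, 250 before and 50 after the transcription start (GRCm38.p6, the same build as mm10), were matched by symbol to 10732 of 14378 tested genes (74.6%). They were searched on both strands for the core GAAANNGAA, where N is any base, with overlapping matches allowed. Of the 20 largest falls among genes with a mean log2 CPM of at least 2, 15 had a promoter and 11 of these held the core, against 907 of 10732 tested genes (8.45%). The following 60-base stretches, written 5′ to 3′ on the gene's own strand with every match in capitals, all lie before the start site.
Ifit1, chr19:34640780-34640839, plus strand: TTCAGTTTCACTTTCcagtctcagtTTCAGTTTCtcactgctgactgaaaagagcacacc
Ifit3, chr19:34583402-34583461, plus strand: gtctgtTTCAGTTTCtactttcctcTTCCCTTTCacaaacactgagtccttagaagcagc
Isg15, chr4:156200850-156200909, minus strand: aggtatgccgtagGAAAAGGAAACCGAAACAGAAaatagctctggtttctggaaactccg
Rsad2, chr12:26456537-26456596, minus strand: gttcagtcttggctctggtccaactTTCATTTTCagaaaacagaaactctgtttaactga
Cxcl10, chr5:92349068-92349127, minus strand: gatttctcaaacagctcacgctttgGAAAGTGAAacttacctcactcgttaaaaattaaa
Gbp7, chr3:142530259-142530318, plus strand: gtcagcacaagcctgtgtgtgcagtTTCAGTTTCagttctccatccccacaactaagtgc
Ifi203, chr1:173942493-173942552, minus strand: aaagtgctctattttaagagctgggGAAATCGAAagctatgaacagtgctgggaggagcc
In Ifit1 and Isg15 matches overlap each other, and where the capitals begin with TTC the match is on the opposite strand. A match describes the letters in the window and does not show that a factor binds there.

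Ifit1, Ifit3 and Ifit2 encode proteins that sequester foreign RNA. Ifit1 fell from 59.9 and 56.8 to 5.64 and 3.72 CPM, a log2 fold change of −3.63 ± 0.19 (edgeR adjusted p = 2.25e-10), and Ifit3 from 64.1 and 65.6 to 6.18 and 3.53 CPM. Ifit2 fell less, from 72.5 and 71.3 to 36.5 and 34.1 CPM (−1.03 ± 0.12). Rsad2, which encodes the antiviral enzyme viperin, was at 21.1 and 20.7 CPM with PBS and 1.64 and 1.34 CPM with BMP2, or 13.9-fold lower. Isg15 itself fell from 39.5 and 35.0 to 3.46 and 5.54 CPM, and Usp18, whose product removes ISG15 and restrains the interferon receptor, from 27.2 and 26.6 to 2.73 and 2.67 CPM (−3.31 ± 0.22). In every one of these genes both BMP2 libraries lay below both PBS libraries, as in 1334 of all 1335 genes called lower. Of all tested genes 55.9% had groups that do not overlap, in either direction. Rtp4, Xaf1, Ifi44, Parp14 and Oasl2 fell by 6.58-fold, 4.70-fold, 12.1-fold, 4.04-fold and 5.17-fold. The RNA sensors fell less steeply, with Ddx58 (RIG-I) from 84.5 and 78.8 to 36.6 and 37.6 CPM and Ifih1 (MDA5) from 38.7 and 33.2 to 15.3 and 13.3 CPM. Eif2ak2, the kinase PKR that halts translation on double-stranded RNA, had −0.82 ± 0.11 and Bst2, a tether of budding virus, −0.99 ± 0.12. Adar, an RNA-editing enzyme, was at 73.8 and 81.2 CPM with PBS and 44.2 and 47.4 CPM with BMP2 (−0.76 ± 0.12). Oas3 had 23 and 22 raw counts with PBS and 0 in both BMP2 libraries, at least 12.6-fold lower when the BMP2 group is set to a floor of 3 counts in all, a bound that covers counting error only, and its call was lost without PBS replicate 2 (edgeR adjusted p = 0.0538), BMP2 replicate 1 (0.0527) or BMP2 replicate 2 (0.0505), and in DESeq2. Ifit3 and Ifit3b are near-identical copies, as are some Oas1 genes, so their separate values are uncertain. The members not called were Ifit1bl1 and Herc6, and 1 listed gene, Oas1g, was under the filter with 5 and 5 counts with PBS and 0 and 0 with BMP2.

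Interferon-inducible GTPases, which attack the membranes around intracellular pathogens, fell to a similar extent. Lower levels were found for 13 of 14 tested members and higher for 0 (median −2.27), 12 to 13 without 1 library and 9 without PBS replicate 1 and BMP2 replicate 1. The summed level was 362 and 352 CPM with PBS and 100.3 and 98.5 CPM with BMP2. Iigp1 fell from 40.9 and 40.9 to 5.64 and 6.11 CPM (−2.80 ± 0.17, edgeR adjusted p = 2.92e-09), Gbp7 from 27.7 and 25.8 to 2.64 and 3.25 CPM and Gbp3 from 21.2 and 23.3 to 3.001 and 4.01 CPM. Irgm1, a regulator of the effector GTPases, had the highest counts of the list and fell by 2.36-fold, from 112 and 104 to 48.2 and 43.2 CPM. Irgm2, Igtp, Gbp2 and Gbp6 had log2 fold changes of −1.80 ± 0.15, −2.01 ± 0.21, −2.10 ± 0.23 and −2.42 ± 0.27. Tgtp1 and Tgtp2 share most of their sequence and are not separated with certainty here.

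MHC class I genes, which display peptides to T cells, fell in part and by smaller factors. Of 19 tested members 10 were lower and 1, the immunoproteasome subunit gene Psmb10, higher (median −0.68). The number lower was 7 to 10 without 1 library and 5 without PBS replicate 1 and BMP2 replicate 1, and Psmb10 (0.40 ± 0.12) was called in none of those 5 fits (0.37 without PBS replicate 1, 0.42 without PBS replicate 2, 0.45 without BMP2 replicate 1 and 0.34 without BMP2 replicate 2). B2m, the shared light chain, fell from 352 and 358 to 263 and 259 CPM (−0.44 ± 0.05), and the heavy chain genes H2-D1 and H2-K1 from 90.3 and 87.7 to 53.1 and 55.3 CPM and from 65.3 and 70.2 to 40.8 and 38.1 CPM. The peptide transporter gene Tap1 fell from 32.8 and 33.3 to 16.4 and 16.8 CPM. Psmb8, an immunoproteasome subunit, had the steepest fall of those that held in each fit without 1 library, from 8.08 and 10.01 to 1.82 and 1.81 CPM (−2.31 ± 0.33).

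Among the genes that make, sense and relay interferon, falls were found at the level of the transcription factors. The ligand genes Ifnb1, Ifna4 and Ifng had no count in any of the 4 libraries, which at most allows 3 counts in each library. Receptor and kinase genes were not called: Ifnar1 was at 74.8, 68.95, 69.7 and 73.5 CPM (PBS 1, PBS 2, BMP2 1 and BMP2 2) and Jak1 at 190.1, 179.9, 169 and 187 CPM. Stat2, a transducer of type I interferon signals, fell from 70.8 and 65.3 to 27.6 and 29.6 CPM (−1.25 ± 0.13, edgeR adjusted p = 1.63e-06). Irf9, its DNA-binding partner, had 49.2 and 41.96 CPM with PBS and 22.6 and 24.8 CPM with BMP2 (−0.95 ± 0.13). Irf7, the factor that amplifies type I interferon, fell by 7.32-fold, from 26.02 and 36.9 to 4.91 and 3.63 CPM. Irf1 (−0.54 ± 0.14) was also called lower, with the call lost in 3 fits (−0.43 without PBS replicate 1, −0.54 without BMP2 replicate 1 and −0.54 without BMP2 replicate 2). Of 20 tested members 5 were thus lower and 0 higher (median −0.22), 4 to 5 without 1 library and 3 without PBS replicate 1 and BMP2 replicate 1. Irf3 (−0.23 ± 0.13), Stat3 (0.04 ± 0.05), and the feedback inhibitor Socs1 (0.65 ± 0.56) did not pass. Macrophage and leukocyte markers had a lower sum in the same libraries, 96.2 to 102 CPM with PBS and 75.8 to 76.1 CPM with BMP2. Of 8 tested members 1, Lyz2 (−0.64 ± 0.11), was called, or 12.5% against 15.8% of all tested genes. Their median was −0.26, but 0.05 without PBS replicate 1 and −0.59 without PBS replicate 2. Under the filter were 10 of 18 listed members, among them the pan-leukocyte gene Ptprc. Another of these, S100a9, had 0 counts with PBS and 10 and 10 with BMP2. The part of those cells in the interferon result was not tested.

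**Figure D2:**
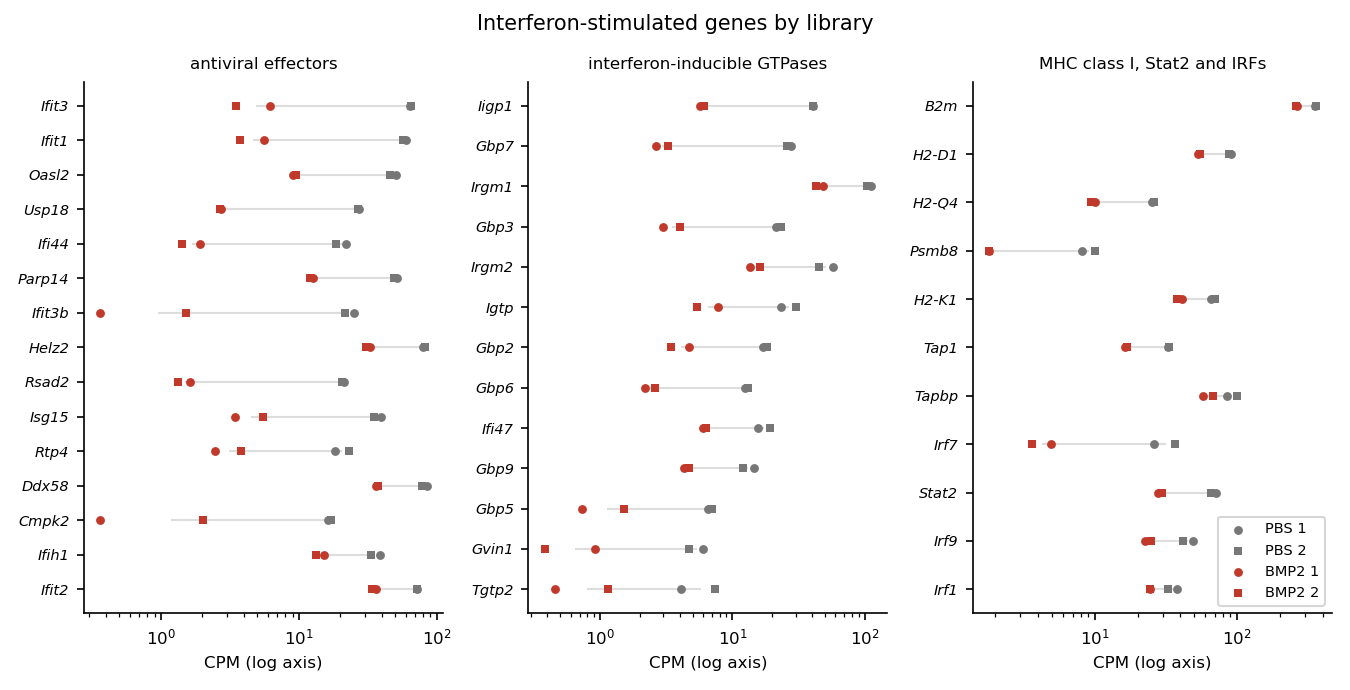
CPM (log axis) of interferon-stimulated genes in each library, grey for PBS and red for BMP2, circles for replicate 1 and squares for replicate 2, with a line between the group means; the genes are members of the 4 interferon lists that were called lower and had a count in every library. In each row both red points lie to the left of both grey points, from Ifit3 at 64.1 and 65.6 against 6.18 and 3.53 CPM to B2m at 352 and 358 against 263 and 259 CPM. That follows from the choice of genes, since 1334 of all 1335 genes called lower had groups that do not overlap.

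The response element core was then counted over whole groups of genes. It was found in the promoters of 15 of 23 antiviral effectors (65.2%), 8 of 9 interferon-inducible GTPases (88.9%) and 5 of 16 MHC class I genes (31.2%), counting members with a promoter. Of genes that fell at least 2-fold 60 of 225 (26.7%) held it, and 38 of 192 (19.8%) when the 4 interferon lists were taken out. Those lists are not complete: the interferon-induced Cxcl10 and Ifi203, both shown above with the core, remain among the 192. The share of 19.8% is therefore not that of genes unrelated to interferon. Of genes that rose at least 2-fold 7 of 72 (9.72%) held it, close to the 8.45% of all tested genes. The genes compared were chosen by their change, so these shares are a description without a test. The SMAD1/5 GC-rich element GGCGCC, searched in the same way, was in 24.2% of all tested promoters, in 22.7% of those of genes called higher, in 5 of 11 BMP-SMAD target promoters (45.5%), in 7 of 10 of the D-type cyclin and CDK inhibitor list (70%), in 2 of 13 of the 20 largest rises (15.4%) and in 28 of 225 promoters of genes that fell at least 2-fold (12.4%). Chemokine promoters held the NF-kB letters GGGNNNTTC in 6 of 10 cases (60%) against 17.7% of all tested genes. They were also in 7 of 10 promoters of NF-kB subunits and inhibitors (70%) and 6 of 9 of pattern recognition receptors (66.7%). Of genes called lower 17.8% held them.

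**Figure D3:**
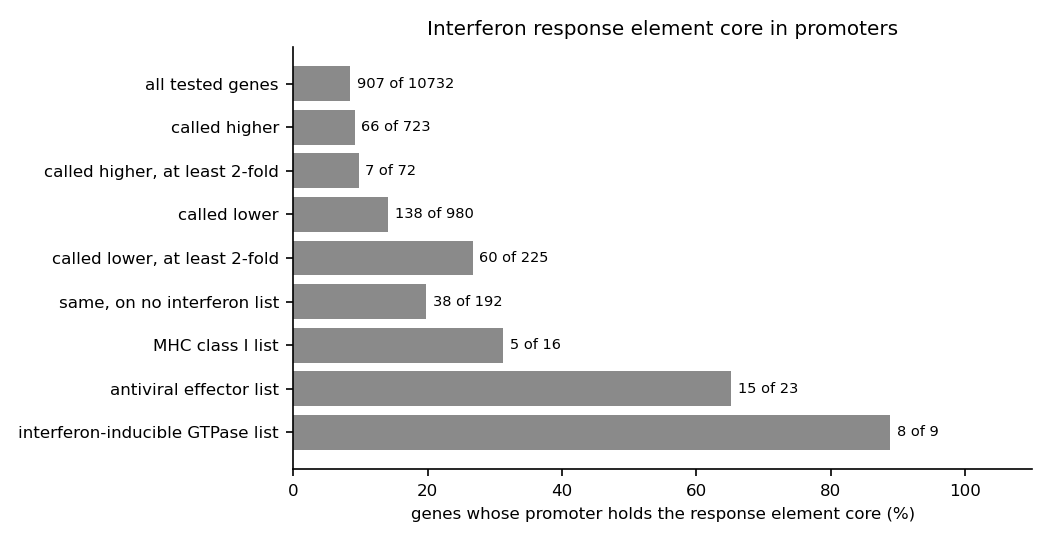
Bars give the share (%) of genes with a RefSeq promoter in which the interferon response element core occurs on either strand, with the counts printed beside each bar. The share is 8.45% over all tested genes, 9.13% over those called higher, 14.1% over those called lower and 88.9% over the interferon-inducible GTPases.

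Chemokines, secreted proteins that draw leukocytes, fell with BMP2. Lower levels were found for 11 of 14 tested members and higher for 0 (median −1.09), 10 to 11 without 1 library and 8 without PBS replicate 1 and BMP2 replicate 1. Cxcl5, which attracts neutrophils, fell from 313 and 378 to 57.5 and 75.6 CPM (chr5:90759360-90761624 in mm10, plus strand). The interferon-induced Cxcl10 fell from 35.9 and 36.9 to 3.64 and 2.77 CPM. Cxcl1, also a neutrophil chemokine, and the monocyte chemokines Ccl2 and Ccl7 fell by 2.50-fold, 1.77-fold and 1.78-fold, with Ccl2 from 416 and 386 to 218 and 235 CPM. Cxcl12, the ligand of CXCR4, fell from 209 and 219.9 to 150.5 and 158 CPM (−0.48 ± 0.07). Cxcl16 and Cx3cl1, which are made as membrane-bound forms, had −0.87 ± 0.13 and −1.03 ± 0.18. In all of these the BMP2 libraries lay below the PBS libraries, as in 1334 of all 1335 genes called lower. Ccl3, Ccl6 and Ccl20 were tested and not called, and 7 of 21 listed chemokines in the files, among them Ccl5 and Cxcl9, were under the filter.

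Part of the other inflammatory genes fell. Of 16 cytokine and adhesion genes 8 were lower and 2 higher (median −0.85), and of 14 NF-kB subunits and inhibitors 6 were lower and 0 higher (median −0.20). Csf1, the macrophage growth factor, fell from 984 and 976 to 703 and 699.7 CPM (−0.48 ± 0.05). The leukocyte adhesion molecules Vcam1 and Icam1 fell from 381 and 394 to 287 and 295 CPM and from 47.96 and 49.1 to 27.3 and 22.3 CPM, and Sele, which encodes E-selectin, from 20.2 and 22.98 to 11.9 and 10.02 CPM. Lcn2, an iron-binding acute phase protein, was at 47.9 and 46.2 CPM with PBS and 22.1 and 26.3 CPM with BMP2. The 2 rises were Lif and Il33, of which Il33 (2.11 ± 0.51) lost its call in 2 fits (1.30 without PBS replicate 1 and 1.96 without BMP2 replicate 1) and was 3.73 without PBS replicate 2. Lif, a cytokine of the interleukin-6 family, rose from 19.9 and 20.1 to 45.7 and 44.2 CPM (1.17 ± 0.13, edgeR adjusted p = 4.02e-06). Among NF-kB genes Nfkbiz (−0.54 ± 0.10) and Nfkb2 (−0.51 ± 0.11) fell in each fit without 1 library, and the list's number lower was 2 without PBS replicate 1, 3 without PBS replicate 2, 3 without BMP2 replicate 1 and 3 without BMP2 replicate 2, and 1 without PBS replicate 1 and BMP2 replicate 1. Rela (−0.12 ± 0.10), the main activating subunit, did not pass. The complement genes C3 and Masp1 fell from 25.5 and 23.2 to 8.37 and 10.1 CPM and from 43.9 and 42.9 to 20.5 and 14.1 CPM, while 11 of 14 tested complement genes did not pass. Clu, which encodes clusterin, an extracellular chaperone also classed with complement regulators, fell from 461 and 443 to 266 and 281 CPM, and of the other 12 tested members of its list with TLR4 signalling none was called in edgeR's test or in DESeq2 and 1 had an unadjusted p under 0.05, Myd88 being at −0.26 ± 0.13 and Traf6 at 0.31 ± 0.14.

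The BMP pathway itself moved little at its receptors and more at its ligands and antagonists. Of 13 tested ligand genes 3 rose and 5 fell (median −0.18). Inhbb, an activin subunit, rose from 23.01 and 26.03 to 57.2 and 57.1 CPM (1.22 ± 0.13, edgeR adjusted p = 1.89e-06), and Inhba, the other activin subunit of the list, fell from 139 and 143 to 102 and 102 CPM (−0.47 ± 0.09). Bmp4 fell from 37.9 and 33.3 to 17.9 and 19.95 CPM and Bmp6 from 38.2 and 38.5 to 15.6 and 23.96 CPM, with log2 fold changes of −0.91 ± 0.14 and −0.96 ± 0.16. Gdf15, a stress-induced cytokine, rose from 28.5 and 30.5 to 44.2 and 46.3 CPM. The number of ligands lower was 5 without PBS replicate 1, 3 without PBS replicate 2, 4 without BMP2 replicate 1 and 3 without BMP2 replicate 2, and 0 without PBS replicate 1 and BMP2 replicate 1. Endogenous Bmp2 was at 3.50, 4.44, 4.82 and 5.06 CPM and did not pass (0.32 ± 0.33).

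Of 11 tested antagonists 2 rose and 4 fell (median −0.14). Fst, which encodes the activin-binding follistatin, rose from 10.8 and 9.49 to 47.6 and 46.2 CPM (2.20 ± 0.15, chr13:114452290-114458951 in mm10, minus strand). Fstl1, a follistatin-like glycoprotein of the heart, fell from 2528 and 2513 to 2007 and 1917 CPM (−0.36 ± 0.05). The number lower was 1 without PBS replicate 1, 2 without PBS replicate 2, 1 without BMP2 replicate 1 and 2 without BMP2 replicate 2: the falls of Fstl3 (−0.71 ± 0.15; −0.65 without PBS replicate 1 and −0.59 without BMP2 replicate 1), Sost and Twsg1 did not hold throughout, and 47.3% of the exon bases of Fstl3 lie within Prss57 on the other strand, which cannot be told apart here. The rise of Grem1, also an antagonist, lost its call in 3 fits (2.31 ± 0.74; 1.34 without PBS replicate 1, 2.55 without BMP2 replicate 1 and 2.01 without BMP2 replicate 2) and was 5.02 without PBS replicate 2. Nog, which encodes the direct BMP antagonist noggin, was at 1.22, 0.174, 2.27 and 1.72 CPM (1.45 ± 0.69) and did not pass. Receptors were nearly flat in calls: 1 of 13 fell and 0 rose (median −0.12). Bmpr1a was at 159, 162, 172 and 159 CPM, Bmpr2 at 135, 149.7, 150.5 and 158 CPM and Acvr1 at 48.7, 55.4, 49.6 and 50.2 CPM, with log2 fold changes of 0.05 ± 0.07, 0.12 ± 0.10 and −0.06 ± 0.11. The 1 receptor called, Acvrl1 (−0.40 ± 0.12), lost its call in each fit without 1 library (−0.32 without PBS replicate 1, −0.47 without PBS replicate 2, −0.41 without BMP2 replicate 1 and −0.39 without BMP2 replicate 2).

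Of 12 SMAD genes 2 rose and 2 fell (median −0.02), which is 33.3% called against 15.8% of all tested genes, and without 1 library 0 or 1 was called higher and 1 or 2 lower. Smad3, which relays TGF-beta and activin signals, fell from 70.2 and 77.4 to 45.4 and 40.3 CPM (−0.78 ± 0.11, edgeR adjusted p = 5.08e-05). Smad1 (−0.06 ± 0.12), Smad5 (0.15 ± 0.08) and Smad4 (−0.22 ± 0.09) did not pass. Smad9 (0.68 ± 0.18) was higher, with a call lost in 3 fits (0.71 without PBS replicate 1, 0.65 without PBS replicate 2 and 0.62 without BMP2 replicate 1). Targets of BMP-activated SMADs were called higher in 6 of 20 cases and lower in 0, with a median of 0.14 against 0.0044 over all tested genes. Id4, at 6.15 and 6.88 CPM with PBS and 2.91 and 4.58 CPM with BMP2, had the lowest log2 fold change of that list (−0.80) and did not pass. The rises of Tbx20 (from 786 and 804 to 1407 and 1435 CPM), Id2 (from 64.7 and 61.4 to 94.7 and 92.2 CPM) and Bambi (from 40.6 and 34.6 to 59.3 and 59.2 CPM) held in each fit without 1 library. Those of Smad6, Smad9 and Msx2 did not, and the number higher was 3 without PBS replicate 1, 4 without PBS replicate 2, 4 without BMP2 replicate 1 and 4 without BMP2 replicate 2, and 1 without PBS replicate 1 and BMP2 replicate 1. Id1 was at 55.6, 51.4, 46.6 and 49.7 CPM, Id3 at 199, 197, 211 and 233 CPM and Smad7 at 96.6, 108, 104 and 103 CPM, with overlapping groups in Smad7. Genes of cartilage and bone fell: 7 of 8 tested were lower and 0 higher (median −0.98), 5 to 6 without 1 library and 3 without PBS replicate 1 and BMP2 replicate 1. Alpl, the phosphatase used as an osteoblast marker, fell by 4.11-fold, from 11.6 and 13.4 to 2.91 and 3.15 CPM. Sox9, the master factor of cartilage, fell from 52.1 and 58.4 to 33.5 and 30.5 CPM, and Mgp, an inhibitor of calcification, from 80.4 and 65.3 to 48.01 and 44.9 CPM. Runx2, the master factor of bone, did not pass (−0.25 ± 0.25), and Sp7, Ibsp and 7 more listed genes were under the filter.

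Sarcomere genes fell, unequally between isoforms. On the thin filament 14 of 17 genes were lower and 1, Nebl, higher (median −0.58), on the thick filament 10 of 13 and 0 (−0.42), and at the Z-disc and M-band 14 of 20 and 3 (−0.32). Without 1 library the numbers lower were 11 to 13, 8 to 9 and 11 to 12, and without PBS replicate 1 and BMP2 replicate 1 they were 11, 8 and 10. The call of Nebl, a nebulin-like protein gene, was lost in each of those fits (0.19 ± 0.06; 0.20 without PBS replicate 1, 0.18 without PBS replicate 2, 0.21 without BMP2 replicate 1 and 0.16 without BMP2 replicate 2). Actc1, cardiac alpha-actin, fell from 6796 and 6729.7 to 3162 and 3161 CPM (chr2:114047282-114053548 in mm10, minus strand). The skeletal and smooth muscle actins Acta1 and Acta2 fell from 18.01 and 19.1 to 6.002 and 5.16 CPM and from 2087 and 2087 to 1167 and 1158 CPM. Among troponins the fetal Tnni1 fell from 326 and 315 to 204 and 223 CPM (−0.59 ± 0.06), whereas the adult Tnni3 was at 753, 722, 787 and 701 CPM and did not pass (0.01 ± 0.06). Tnnc1 fell from 924 and 853 to 571 and 589.99 CPM (−0.61 ± 0.06) and Tnnt2 by a smaller step (−0.22 ± 0.04).

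The myosin heavy chains differed in the size of the change. Myh7, the fetal and slow isoform, fell from 232 and 226 to 104 and 90.4 CPM (−1.23 ± 0.08), with 13.3% of its exon bases inside an opposite-strand model, and Myh6 from 14007 and 13925 to 12239 and 12396 CPM (−0.18 ± 0.03). The ventricular light chains Myl2 and Myl3 had −0.32 ± 0.05 and −0.42 ± 0.05, and Myl4, of the atrium and fetal ventricle, −0.93 ± 0.11. The thin filament elongator Lmod2 fell from 173 and 169 to 77.2 and 70.1 CPM. The M-band gene Myom1 fell from 871 and 937 to 496 and 487 CPM and the Z-disc gene Actn2 from 1361 and 1471 to 937 and 952 CPM, and titin, Ttn, changed by −0.26 ± 0.04. The 3 Z-disc and M-band genes that went the other way were Pdlim3, Csrp3 and Myoz2. Csrp3, a stretch-related LIM protein gene, rose from 212 and 190.1 to 324 and 332 CPM (0.70 ± 0.06). Pdlim3 rose from 46.6 and 47.8 to 85.02 and 88.8 CPM (0.88 ± 0.10) and Myoz2, a calcineurin-binding protein gene, from 164 and 165 to 245 and 245 CPM (0.58 ± 0.06). These rises held in each fit without 1 library and also with PBS replicate 1 and BMP2 replicate 1 left out.

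Calcium handling genes fell in 12 of 24 cases and rose in 0 (median −0.28). The number lower was 10 without PBS replicate 1, 8 without PBS replicate 2, 8 without BMP2 replicate 1 and 8 without BMP2 replicate 2, and 6 without PBS replicate 1 and BMP2 replicate 1. Ryr2, the calcium release channel, fell from 653 and 662 to 339 and 325 CPM (−0.99 ± 0.05), and the sodium-calcium exchanger gene Slc8a1 from 919 and 938 to 569.9 and 537 CPM. Atp2a2, the SERCA pump of the sarcoplasmic reticulum, fell from 3521 and 3644 to 2519 and 2557 CPM (−0.50 ± 0.04). Casq1, a calcium-storing protein best known from skeletal muscle, fell by 2.94-fold, from 239 and 231 to 84.8 and 75.1 CPM, and the cardiac Casq2 by 1.36-fold. The L-type channel gene Cacna1c (−0.15 ± 0.06) and Jph2 (−0.15 ± 0.06) did not pass, although Jph2 was called lower without PBS replicate 1 (−0.25). The connexin genes Gja1 and Gja5 fell from 1042 and 1069 to 751 and 727 CPM and from 16.01 and 16.02 to 4.91 and 6.01 CPM. The pacemaker channel Hcn4 fell from 10.01 and 11.1 to 2.001 and 3.63 CPM (−1.90 ± 0.33), and of 22 channel and connexin genes 7 fell and 5 rose (1 without PBS replicate 1, 4 without PBS replicate 2, 3 without BMP2 replicate 1 and 4 without BMP2 replicate 2). The potassium channel gene Kcnh2 rose from 64.04 and 62.4 to 87.9 and 91.5 CPM (0.50 ± 0.10).

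Several stress markers of the heart fell. Nppb, which encodes B-type natriuretic peptide, fell from 255 and 247 to 70.1 and 73.1 CPM (−1.81 ± 0.08, edgeR adjusted p = 1.05e-10), and Ankrd1, a stretch-responsive gene, from 2659.6 and 2684 to 1342 and 1365 CPM. Of 17 members of that list 8 fell and 2, Postn and Gdf15, rose (median −0.39), 6 to 8 lower without 1 library and 6 without PBS replicate 1 and BMP2 replicate 1. Nppa fell from 2543 and 2362 to 1093 and 1064 CPM, but Gm13054 on the opposite strand covers 61.5% of its exon bases and fell as well (−1.22 ± 0.06), and their reads cannot be told apart. Most cardiac transcription factor genes did not pass, 19 of 25, among them Gata4 (0.16 ± 0.06), Nkx2-5 (0.11 ± 0.11) and Tbx5 (−0.12 ± 0.18). Tbx20, a T-box factor of the heart, was the largest rise of that list (0.84 ± 0.05, chr9:24718138-24774303 in mm10, minus strand), and Mef2a rose from 189.97 and 195 to 255 and 266 CPM. Myocd, a coactivator of serum response factor on smooth and cardiac muscle genes, fell from 84.8 and 78.8 to 45.2 and 34.8 CPM (−1.03 ± 0.12). Smooth muscle markers fell beside it in 9 of 15 cases and rose in 3 (1 without PBS replicate 1, 3 without PBS replicate 2, 2 without BMP2 replicate 1 and 2 without BMP2 replicate 2), with summed levels of 4626 and 4663 CPM with PBS and 2939 and 2963 CPM with BMP2, Cnn1 at −1.46 ± 0.19 and Tagln at −0.51 ± 0.06, 67.9% of whose exon bases lie within an opposite-strand model. The part of those cells in the muscle gene result was not tested, and Acta2, Des and Myocd stand on more than 1 of these lists.

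**Figure D4:**
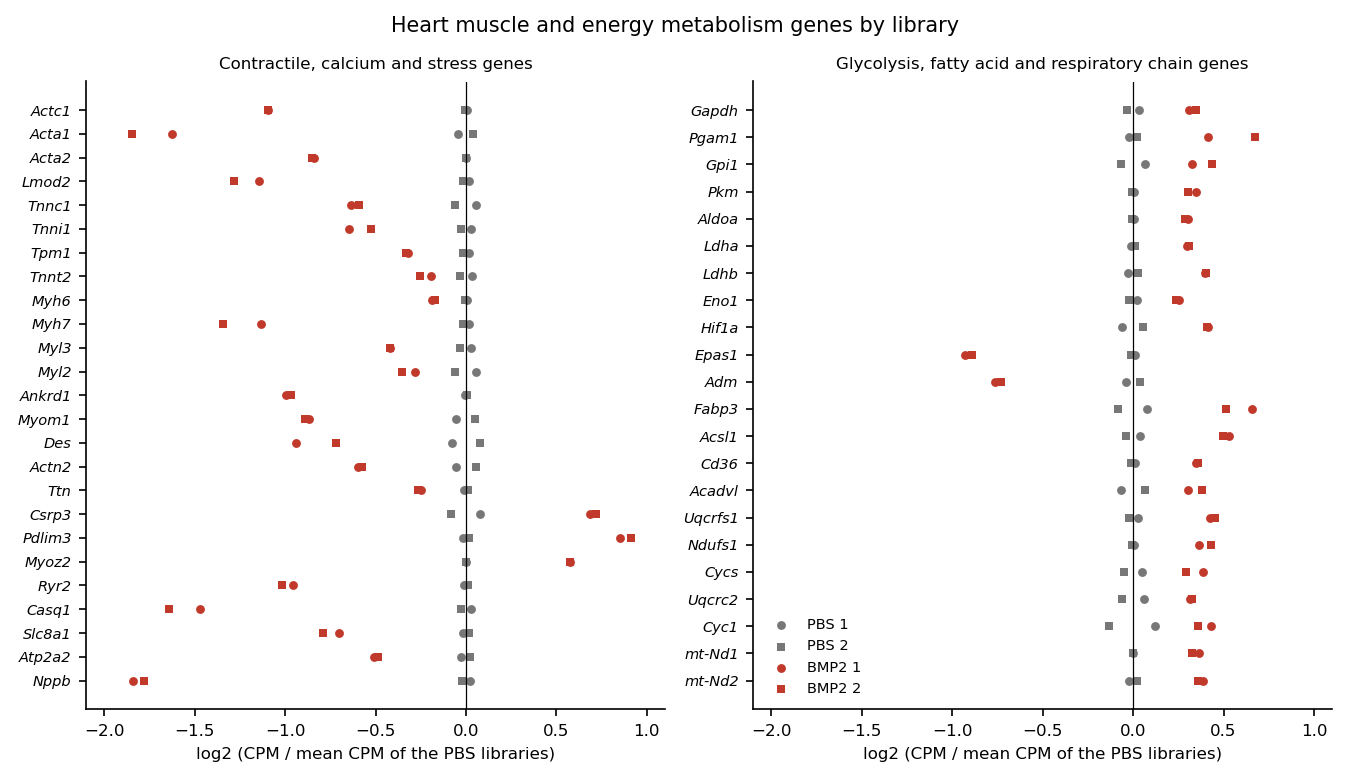
Each point is the log2 ratio of 1 library's CPM to the mean CPM of the PBS libraries, grey for PBS and red for BMP2, circles for replicate 1 and squares for replicate 2, for contractile, calcium and stress genes on the left and energy metabolism genes on the right. The left panel runs from Nppb, Acta1 and Casq1 at the low end to Csrp3, Pdlim3 and Myoz2 above 0, and in the right panel all genes but Epas1 and Adm lie above 0 with BMP2. Only called genes were drawn, so their distance from 0 follows from the choice. Members not called, such as Tnni3 and Hk2, are left out. They number 7 of 27 glycolysis and hypoxia, 15 of 30 nuclear-encoded respiratory chain and 17 of 29 fatty acid genes.

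Part of the energy metabolism genes rose by small steps. Of 27 glycolysis and hypoxia genes 18 rose and 2 fell (median 0.25), of 30 nuclear-encoded respiratory chain genes 15 and 0 (0.17), and of 29 fatty acid uptake and oxidation genes 12 and 0 (0.20). The calls depended on single libraries. Glycolysis genes higher numbered 13 without PBS replicate 1, 13 without PBS replicate 2, 16 without BMP2 replicate 1 and 11 without BMP2 replicate 2, respiratory chain genes 13 without PBS replicate 1, 10 without PBS replicate 2, 11 without BMP2 replicate 1 and 9 without BMP2 replicate 2, and fatty acid genes 7 without PBS replicate 1, 9 without PBS replicate 2, 8 without BMP2 replicate 1 and 6 without BMP2 replicate 2. With PBS replicate 1 and BMP2 replicate 1 left out 7, 5 and 2 were called higher, and the medians were 0.29, 0.19 and 0.19.

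In glycolysis the rises ran along the pathway. Gpi1, which interconverts hexose phosphates, rose from 534 and 486 to 641 and 691 CPM (0.38 ± 0.06), Aldoa from 1067 and 1059 to 1309.8 and 1298 CPM (0.29 ± 0.05) and Gapdh from 2126 and 2024 to 2567 and 2640.3 CPM (0.33 ± 0.05). Pgam1 rose from 158 and 163 to 214 and 256 CPM, and Pkm, the last step to pyruvate, from 1405 and 1389.9 to 1776 and 1724 CPM. Both lactate dehydrogenase genes rose, Ldha by 0.30 ± 0.05 and Ldhb by 0.40 ± 0.06 on the log2 scale. The hexokinase Hk2 (0.07 ± 0.10) and the glucose transporters Slc2a1 (0.01 ± 0.10) and Slc2a4 (0.23 ± 0.11) did not pass. The 2 hypoxia-inducible factor subunits moved in opposite directions: Hif1a rose from 308 and 334 to 428 and 426 CPM (0.41 ± 0.06) and Epas1 fell from 169 and 166 to 88.02 and 90.3 CPM (−0.91 ± 0.08). Adm, a vasodilator peptide gene induced by hypoxia, fell from 137 and 145 to 83.4 and 85.3 CPM. Among mitochondrial genes Uqcrfs1, of complex III, rose from 243 and 235 to 322 and 328 CPM (0.44 ± 0.05) and Ndufs1, of complex I, from 202 and 201 to 259 and 271 CPM. The mitochondrially encoded mt-Nd1 and mt-Nd2 rose from 4459 and 4466 to 5742 and 5584 CPM and from 2624 and 2704 to 3480.1 and 3413 CPM, and of 11 tested mitochondrial transcripts 4, with mt-Nd3 and mt-Nd5, were called higher (2 without PBS replicate 1, 3 without PBS replicate 2, 3 without BMP2 replicate 1 and 2 without BMP2 replicate 2). Fabp3, the fatty acid carrier of heart, rose from 289.5 and 259 to 433 and 391 CPM (0.59 ± 0.06), and Acsl1, which activates fatty acids, from 128 and 121 to 179.8 and 176 CPM (0.52 ± 0.07). The regulators Ppara (0.48 ± 0.23) and Ppargc1a (0.20 ± 0.11) did not pass. Sterol synthesis and transport genes gave 1 call among 24, the rise of Sqle (0.58 ± 0.11), with a median of 0.04.

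Many extracellular matrix genes were lower, with exceptions among fibrillar and matricellular members. Of 25 collagens and collagen-modifying enzymes 19 fell and 2 rose (median −0.39), 14 to 17 lower without 1 library and 14 without PBS replicate 1 and BMP2 replicate 1. Col14a1, a fibril-associated collagen, fell from 198 and 199 to 80.02 and 89.9 CPM (−1.22 ± 0.08) and the basement membrane chains Col4a1 and Col4a2 from 3465 and 3888 to 2657 and 2819 CPM and from 2487 and 2718 to 1934 and 1997 CPM. The crosslinking enzymes Loxl2, Loxl1 and Loxl3 had −0.56 ± 0.05, −0.58 ± 0.06 and −1.06 ± 0.11. Col3a1 and Col12a1 were the exceptions and rose from 1766 and 1901 to 2585 and 2730.3 CPM and from 365 and 385 to 535 and 556 CPM. Of 35 matricellular and elastic fibre genes 16 fell and 6 rose (median −0.26), 12 to 14 and 5 to 6 without 1 library. Thbs2 rose from 132 and 152 to 403 and 415 CPM (1.53 ± 0.06), whereas Thbs4, another thrombospondin, fell by 4.20-fold, from 64.3 and 61.2 to 15.9 and 13.9 CPM. Postn, which encodes periostin, rose from 1587 and 1729 to 2708 and 2639.6 CPM, and Cthrc1, a secreted repressor of collagen deposition, from 25.1 and 26.8 to 103 and 93.5 CPM. Ccn2, or connective tissue growth factor, fell from 1363 and 1390.4 to 765 and 761 CPM (−0.85 ± 0.05), with 23.2% of its exon bases within an opposite-strand model, while Ccn5 rose from 116 and 113 to 166 and 163 CPM (0.52 ± 0.07).

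TGF-beta ligands and the proteins that hold them latent fell in 6 of 12 cases and rose in 0 (median −0.36). Ltbp2 fell from 98.3 and 98.6 to 31.7 and 30.6 CPM and Tgfb3 from 131 and 116 to 68.4 and 63.9 CPM. Tgfb1 (−0.38 ± 0.14) and Tgfb2 (−0.12 ± 0.08) did not pass. Timp3, an inhibitor of metalloproteases, rose from 384 and 398 to 921 and 936 CPM (1.25 ± 0.05), against falls of Timp2 (−0.43 ± 0.04) and Timp1 (−0.42 ± 0.08); 21.3% of the exon bases of Timp3 lie within Syn3 on the other strand. Integrins, the receptors for matrix, fell in 13 of 21 cases and rose in 2, Itga8 and Itga9 (median −0.40), 10 to 12 lower without 1 library and 6 without PBS replicate 1 and BMP2 replicate 1. Itga8 rose from 19.2 and 27.8 to 102 and 102 CPM (2.13 ± 0.12) and Itga9 by 0.28 ± 0.07 with a call lost in 3 fits (0.26 without PBS replicate 1, 0.30 without PBS replicate 2 and 0.21 without BMP2 replicate 2), while Itgb5, Itgb3, Itgav and Itga3 had −0.51 ± 0.06, −1.07 ± 0.18, −0.67 ± 0.09 and −0.80 ± 0.11. Fibroblast markers were called in both directions, 2 of 13 higher and 5 lower, with sums of 11618 and 12330 CPM with PBS and 11460 and 11723 CPM with BMP2, and the number lower was 5 without PBS replicate 1, 2 without PBS replicate 2, 3 without BMP2 replicate 1 and 3 without BMP2 replicate 2. Thy1, a surface marker of fibroblasts, fell from 176 and 175 to 80.2 and 79.1 CPM, and Pdgfra from 217 and 209 to 154 and 139 CPM. Epicardial and mesothelial markers were lower in 6 of 11 and higher in 1, Aldh1a2, whose call was lost in 1 fit (0.41 without PBS replicate 1), with Krt18 from 50.1 and 50.1 to 18.1 and 14.7 CPM. The part of these cell types in the matrix result was not tested. Targets of YAP and TEAD, the factors that respond to tension and cell density, fell in 7 of 15 cases and rose in 0 (median −0.33), 5 to 7 lower without 1 library, with Axl at −0.56 ± 0.05 and Amotl2 at −0.42 ± 0.05.

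Feedback genes of the Wnt pathway included large rises. Axin2, a scaffold of the complex that destroys beta-catenin, rose from 0.572 and 0.784 to 23.01 and 24.2 CPM, 34.8-fold, on 8 and 9 raw counts with PBS and 253 and 254 with BMP2. Nkd1 and Nkd2, inhibitors of Dishevelled, rose from 4.65 and 7.92 to 14.9 and 19.95 CPM and from 21.01 and 21.2 to 39.2 and 42.1 CPM, and Tcf7, a nuclear partner of beta-catenin, from 3.36 and 2.79 to 12.5 and 8.11 CPM (1.74 ± 0.30). Of 14 tested members 6 rose and 3 fell (median 0.41). The number higher was 5 without PBS replicate 1, 4 without PBS replicate 2, 5 without BMP2 replicate 1 and 5 without BMP2 replicate 2, and 3 without PBS replicate 1 and BMP2 replicate 1. The Wnt targets Ccnd1 and Myc were among the falls, from 234 and 221 to 148 and 156 CPM (−0.58 ± 0.07) and from 48.9 and 45.8 to 27.1 and 31.1 CPM (−0.70 ± 0.13). Lef1 (0.43 ± 0.53) did not pass. Wnt ligands, receptors and secreted modulators were called in 2 of 23 cases upward and 5 downward (median −0.13), with the number lower 4 without PBS replicate 1, 3 without PBS replicate 2, 3 without BMP2 replicate 1 and 3 without BMP2 replicate 2, Sfrp1 at 0.38 ± 0.07, Ror1 at −0.81 ± 0.14 and Wnt5b at −0.97 ± 0.18. The Tcf/Lef letters ATCAAAG were found in 2.96% of all tested promoters, in 2.35% of those of genes called higher and in 2 of 9 of the feedback list (22.2%), but in none of the promoters of Axin2, Nkd1 and Tcf7 and in 0 of 13 of the 20 largest rises.

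Insulin-like growth factor genes were called in both directions, 7 of 18 higher and 6 lower (median 0.32). Igfbp5, an IGF-binding protein, rose from 6.003 and 6.88 to 44.6 and 48.98 CPM (2.86 ± 0.16, edgeR adjusted p = 9.51e-10, chr1:72857932-72874884 in mm10, minus strand). Igf1 rose from 19.2 and 20.98 to 49.5 and 55.8 CPM (1.39 ± 0.16), and its receptor gene Igf1r fell from 146 and 158 to 109 and 99.4 CPM (−0.54 ± 0.08). Igfbp2 rose from 56.2 and 54.4 to 79.02 and 84.3 CPM, and Igf2r, the receptor that clears IGF2, from 487 and 502 to 613 and 619 CPM. H19, the imprinted noncoding RNA beside Igf2, rose from 113 and 119 to 181 and 198 CPM (0.71 ± 0.07), and Igf2 itself did not pass (−0.08 ± 0.06). The number lower was 3 without PBS replicate 1, 3 without PBS replicate 2, 4 without BMP2 replicate 1 and 3 without BMP2 replicate 2. Of 14 tested imprinted growth genes, H19 and Igf2 included, 8 fell and 1, H19, rose (median −0.38). Among the falls were Rian (−0.58 ± 0.06), Meg3 (−0.58 ± 0.07) and Grb10 (−0.31 ± 0.05).

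Other receptors and guidance genes gave calls in both directions. Agtr1a, the type 1 angiotensin receptor, rose from 6.15 and 6.96 to 21.4 and 22.3 CPM (1.74 ± 0.18), and Ace, the enzyme that makes angiotensin II, fell from 21.1 and 23.3 to 10.4 and 7.16 CPM (−1.34 ± 0.20). Edn1, the endothelin gene, fell from 108 and 105 to 79.1 and 68.9 CPM. Robo2, a receptor for Slit proteins, rose from 8.43 and 11.3 to 33.3 and 34.8 CPM (1.79 ± 0.17), and Sema3c rose from 26.7 and 25.9 to 42.6 and 40.3 CPM (0.66 ± 0.11) while Sema3d and Sema3e fell from 46.3 and 50.1 to 18.6 and 23.5 CPM and from 18.7 and 23.9 to 7.73 and 9.26 CPM. Of 30 guidance genes 5 rose and 7 fell (median −0.06), and the number higher was 2 without PBS replicate 1, 4 without PBS replicate 2, 2 without BMP2 replicate 1 and 4 without BMP2 replicate 2, and that lower 5 without PBS replicate 1, 5 without PBS replicate 2, 5 without BMP2 replicate 1 and 4 without BMP2 replicate 2. Fgf7, a growth factor for epithelia, fell by 4.14-fold, from 10.9 and 12.4 to 2.91 and 2.67 CPM. Of 16 Notch pathway genes 2 were higher and 3 lower, but 0 rises were called without PBS replicate 1, without PBS replicate 2 or without BMP2 replicate 2, and 1 fall in each fit without 1 library. Of 11 neuregulin and ErbB genes 0 rose and 3 fell, with 0 without PBS replicate 1, 1 without PBS replicate 2, 1 without BMP2 replicate 1 and 1 without BMP2 replicate 2. Of 14 VEGF ligands and receptors 3 rose and 0 fell, with 0 without PBS replicate 1, 0 without PBS replicate 2, 1 without BMP2 replicate 1 and 1 without BMP2 replicate 2.

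Proliferation genes showed little change. None of 26 G2/M and mitosis genes was called in edgeR's test (median 0.0026), 1 had an unadjusted p under 0.05 and DESeq2 called 0, although in the fit without BMP2 replicate 2 there was 1 call, the spindle motor gene Kif11 (0.37). The range of their log2 fold changes was −0.27 to 0.16. In the full fit Kif11 was at 0.14 ± 0.12. Mki67, present in cycling cells, was at 285, 295, 284 and 301 CPM and Top2a at 303, 317, 339.5 and 314 CPM. Of 22 DNA replication genes 3, Rrm2, Rrm1 and Pcna, rose, of which Rrm2, a subunit of ribonucleotide reductase, held in each fit without 1 library (from 109.8 and 116 to 145 and 147 CPM). Cyclin genes split: Ccnd2 rose from 320.2 and 334 to 472 and 459 CPM (0.51 ± 0.05), opposite to Ccnd1. The cell cycle inhibitor Cdkn1a rose from 304 and 313 to 418 and 410.03 CPM (0.43 ± 0.05) and Ccng1, another p53 target, from 454 and 471 to 696 and 695 CPM (0.59 ± 0.05). Of 24 tested p53 and apoptosis genes 4, these among them, rose and 1 fell (median −0.02). The other 19, among them Mdm2, Bax, Bbc3 and Sesn1, did not pass.

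Stress and early response lists were mixed. Of 19 heat shock genes 4 rose and 4 fell: Hspb8 rose from 87.3 and 90.3 to 151 and 143 CPM and the mitochondrial chaperone Hspd1 from 448 and 435 to 619.9 and 607 CPM, while the small heat shock proteins Cryab and Hspb1 fell from 599 and 559 to 385 and 399.6 CPM and from 124 and 126 to 80.2 and 95.2 CPM. Cryab and Hspb2 overlap on opposite strands over 17.0% and 30.2% of their exon bases. Of 20 genes of the unfolded protein response 6 fell and 0 rose, 3 without PBS replicate 1, 1 without PBS replicate 2, 4 without BMP2 replicate 1 and 1 without BMP2 replicate 2. The NRF2 list had 7 of 23 higher and 3 lower, with the number higher 2 without PBS replicate 1, 3 without PBS replicate 2, 2 without BMP2 replicate 1 and 3 without BMP2 replicate 2 and that lower 2 without PBS replicate 1, 1 without PBS replicate 2, 0 without BMP2 replicate 1 and 1 without BMP2 replicate 2. Of 22 immediate early genes 6 fell and 0 rose, 5 to 6 lower without 1 library: Klf2, a factor induced by flow in endothelium, fell from 11.6 and 12.4 to 4.18 and 2.67 CPM, Klf6 from 149 and 149.8 to 107 and 103 CPM and Klf4 from 33.4 and 37.1 to 18.1 and 23.2 CPM. Fos (0.50 ± 0.24), Egr1 (0.21 ± 0.08) and Jun (−0.01 ± 0.11) did not pass. Of 19 clock genes 1, Cry2 (−0.66 ± 0.17), was called, with the call lost in 2 fits (−0.54 without PBS replicate 1 and −0.47 without BMP2 replicate 1).

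**Figure D5:**
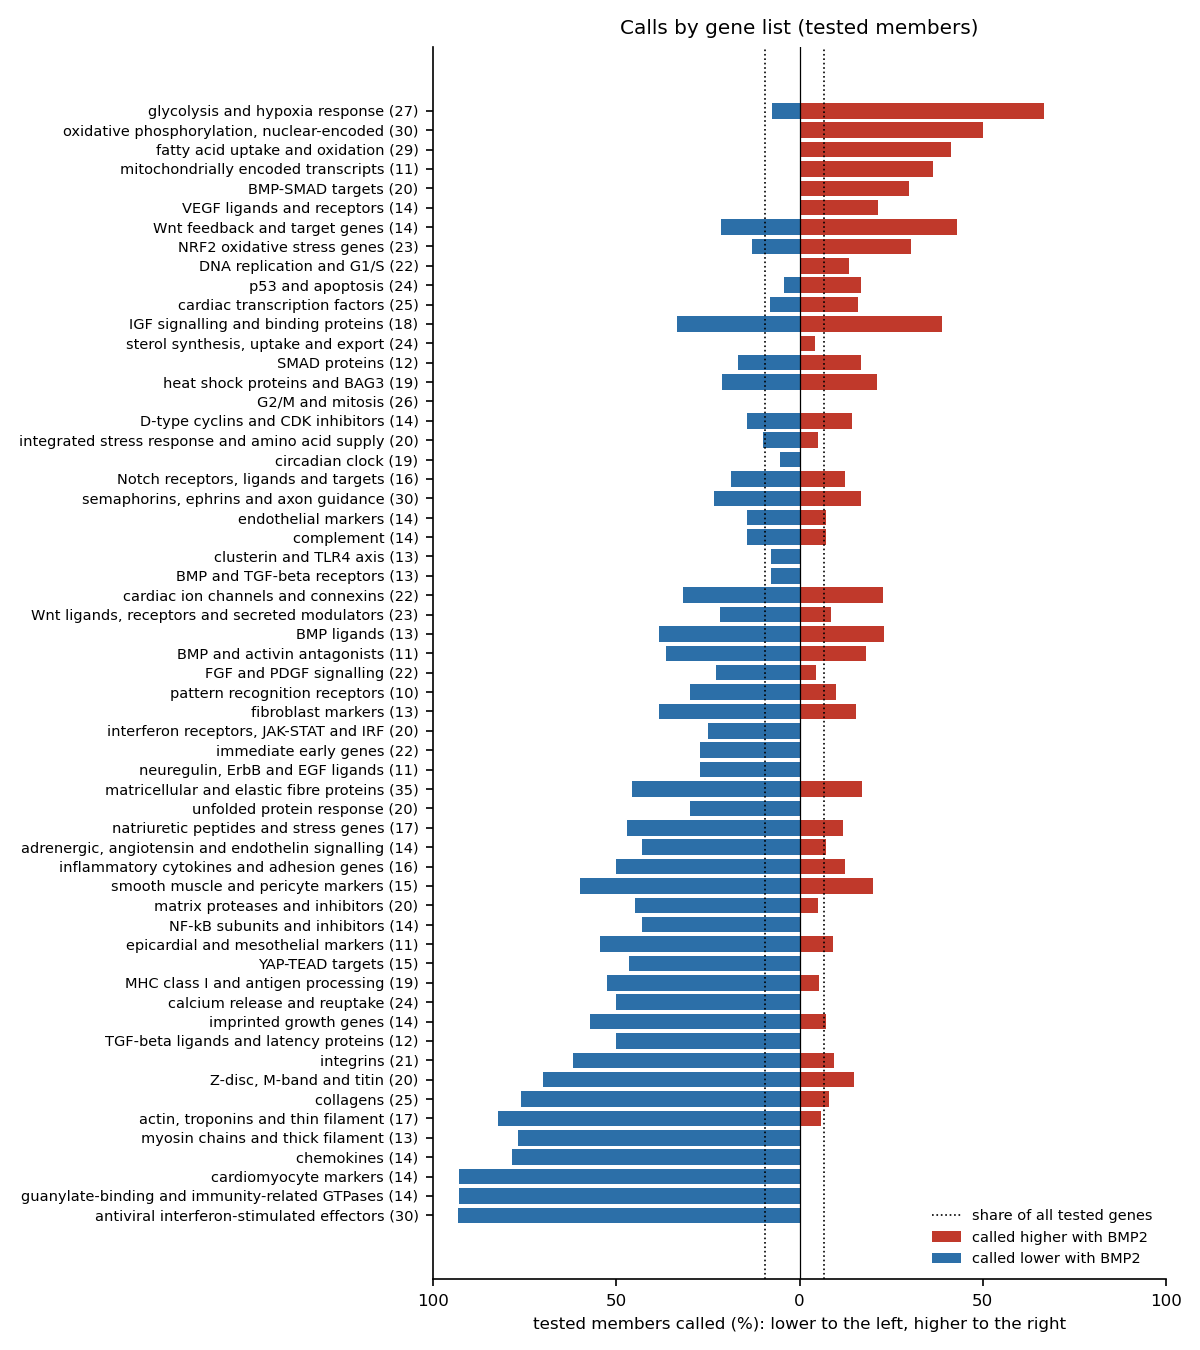
Bars give the share (%) of the tested members of each gene list with at least 10 of them that were called higher (red, to the right) or lower (blue, to the left) with BMP2, and dotted lines mark the shares over all tested genes, 6.55% and 9.29%; the number of tested members is in parentheses. Interferon, cardiomyocyte, chemokine, sarcomere and collagen lists lie at the bottom with mostly blue bars, and glycolysis, respiratory chain and fatty acid lists at the top with mostly red bars.

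Several of the 20 largest rises among genes with a mean log2 CPM of at least 2 were outside the pathways above. Ndnf, a secreted neurotrophic factor gene, rose from 3.57 and 2.18 to 16.7 and 17.4 CPM (2.54 ± 0.31). Itih5, which encodes a hyaluronan-associated matrix protein, rose from 16.2 and 18.5 to 80.7 and 84.6 CPM (2.26 ± 0.11). Rec8, a meiotic cohesin subunit gene, rose from 4.29 and 2.61 to 16.2 and 16.8 CPM (2.24 ± 0.25). Mtfp1, a mitochondrial fission protein gene, rose from 3.50 and 4.70 to 14.5 and 19.4 CPM and Ccdc80 from 81.8 and 84.8 to 238 and 248 CPM. Ppp1r1b, an inhibitor of protein phosphatase 1, rose from 2.86 and 2.44 to 9.64 and 7.45 CPM, and Ociad2 from 2.43 and 3.48 to 9.37 and 7.26 CPM. Cbfa2t3, a transcriptional corepressor gene, had 1.58 ± 0.36, which was 2.30 without PBS replicate 1 and not called without PBS replicate 2 (1.13). Aqp8, an aquaporin gene, rested largely on 1 library, with 0.286 and 0.174 CPM with PBS and 14.5 and 1.05 CPM with BMP2, 31.9-fold higher. Its log2 fold change was not called without BMP2 replicate 1 (2.12) and was 5.89 without BMP2 replicate 2. Mrgprf had 3.22 and 3.22 CPM with PBS and 5.82 and 26.8 CPM with BMP2 and a log2 fold change of 2.33 ± 0.46, which was not called without BMP2 replicate 2 (0.85) and was 3.06 without BMP2 replicate 1. Car3, carbonic anhydrase 3, had no count in either PBS library and 59 and 62 counts with BMP2, at least 47.9-fold higher when the PBS group is set to the floor of 3 counts in all. Among falls outside the interferon lists, Fgf23, the hormone that lowers blood phosphate, fell by 8.004-fold, from 7.50 and 8.27 to 1.36 and 0.573 CPM, and its log2 fold change was −3.76 without BMP2 replicate 1. Among called genes the largest gains in CPM were in mt-Nd1, Postn, Eef1a1 and Col3a1, and the largest losses in Actc1, Myh6, Nppa and Ankrd1. The group mean of Actc1 fell by 3601 CPM.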

How the data were processed

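RNA-seq of 6 libraries was used, 2 each for PBS, BMP2 and BMP2 with dorsomorphin. For each library the authors deposited a table of unnormalised counts by gene symbol. The submitters' processing notes list the mm10 genome and the tools STAR, HTSeq, DESeq2, FastQC and Trimmomatic, without roles. The sources used here give neither the annotation nor the strand setting. Summary lines that name no gene, 53.8% to 54.2% of each file's total, entered neither library sizes nor tests. Without a known strand setting, reads of overlapping genes on opposite strands cannot be told apart.

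The counts were tested with edgeR 4.0.16 in R 4.3.3, by its quasi-likelihood test (glmQLFit and glmQLFTest) with TMM scaling and Benjamini-Hochberg adjustment over all 14378 genes that passed filterByExpr, in 1 fit of all 6 libraries with 3 residual degrees of freedom. A call is an adjusted p under 0.05. CPM are edgeR's counts on a common scale, from TMM-scaled library sizes, fold changes are BMP2 minus PBS on the log2 scale, and ± is the standard error. The procedure was first tested on simulated counts. Coordinates come from the GENCODE vM21 annotation for mm10, which matched 31372 of 32245 symbols (97.29%). Promoters come from RefSeq. Alternatives were DESeq2 1.42.0, size factors by RLE, no filter, a minimum fold, the PBS and BMP2 libraries alone, a replicate block, the 2 ribosomal-repeat models left out, and each library left out. Genes were named from the largest changes, the genes with the smallest p of each list, a fixed panel and the genes without counts in 1 group; a few others are named for their known role. The members and the 63 gene lists were chosen with earlier results of these data known. A p-value that misses the threshold does not show that a gene was unchanged. A few list members that enter the counts are not reported here by name.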

Additional observations from a re-analysis of the deposited data

How the results depend on the processing

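Call counts depended on the number of libraries and on the null tested. Leaving out 1 library, the dorsomorphin libraries included, gave 475 to 1028 genes higher and 843 to 1442 lower, and of those at least 2-fold 73 to 111 higher and 248 to 343 lower. With PBS replicate 1 and BMP2 replicate 1 left out 171 were higher and 403 lower, of which 47 and 160 at least 2-fold, and 565 of those 574 calls were among the 2277. Testing against a minimum fold of 1.5 left 56 higher and 235 lower, of which 50 and 197 at least 2-fold; both settings have fewer samples or a stricter null by construction. DESeq2 called 730 higher and 1112 lower, 1833 of these 1842 shared with edgeR, and RLE factors, no filter and the PBS and BMP2 libraries alone kept each count within 1.5 times. No gene called in the full fit and in an alternative had the opposite sign.

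Replicate numbers are shared between the groups in the labels, but libraries with the same number were nearly uncorrelated in their deviations from the group means (0.07896 for PBS and BMP2, −0.02869 for PBS and the dorsomorphin group, over 11908 genes) and the labels give no shared origin, so the numbers were not used as pairs. PBS replicate 1 and BMP2 replicate 1 did share a high ribosomal-repeat content. Beyond the correlation of 0.07896 given above, whether they share anything else was not tested. With a replicate block 932 genes were higher and 1329 lower, and 2194 of the 2261 calls were shared. Of 248 genes named with values, the block changed no call. The fit rests on 2 libraries a group and 3 residual degrees of freedom.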

Other observations

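Part of the genes of protein synthesis were called higher, in families chosen by symbol after values had been seen, so no test is given. Of 78 mitochondrial ribosomal protein genes 16 were called higher and 0 lower, with a median log2 fold change of 0.18 and summed levels of 3068 and 2911 CPM with PBS and 3423 and 3375 CPM with BMP2. Without 1 library the number higher was 5 (PBS replicate 1), 3 (PBS replicate 2), 7 (BMP2 replicate 1) and 3 (BMP2 replicate 2), and it was 1 with PBS replicate 1 and BMP2 replicate 1 left out. Of 81 cytosolic ribosomal protein genes 23 were higher and 1 lower (median 0.13), but the PBS libraries differed from each other, with sums of 40803 and 36522 CPM against 43066 and 42023 CPM with BMP2. Without PBS replicate 1 35 were higher and 0 lower, and without PBS replicate 2 4 were higher and 5 lower (median 0.04). Without BMP2 replicate 1 7 were higher and 1 lower, and without BMP2 replicate 2 9 and 0. Of 54 translation initiation factor genes 17 were higher and 2 lower (median 0.12), with 6 to 9 higher without 1 library, and 0 higher and 1 lower without PBS replicate 1 and BMP2 replicate 1. Of 317 zinc finger genes named Zfp 6 were higher and 4 lower.

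Genes with counts in 1 group only were more often seen with PBS only than with BMP2 only, and the PBS libraries also held more counts. Examples follow, beside Car3 and Oas3 above, and most of these genes are not named here. Art5, an ADP-ribosyltransferase gene, had 15 and 39 counts with PBS and 0 in both BMP2 libraries, at least 15.2-fold lower with the BMP2 group set to 3 counts in all. Ms4a7, a membrane protein gene of macrophages, had 21 and 12 counts with PBS and 0 with BMP2, at least 9.27-fold lower. S100a9, a calcium-binding protein of neutrophils, had 0 counts with PBS and 10 and 10 with BMP2, at least 7.91-fold higher, and was under the filter on low counts. These bounds cover counting error only.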
